A study of Mus musculus with 8 samples.

Results

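The genes described here are 8 markers of atrial heart muscle, Myl4, Myl7, Sln, Stard10, Bmp10, Dkk3, Nr2f2 and Nr2f1, chosen by symbol from the 27304 genes of a table of read counts. All 8 were in the table and all 8 passed the filter on low counts. Male mice of the inbred strain 129/Sv gave the hearts. They had eaten a standard diet (control, 4 libraries) or one with 0.15% adenine (4 libraries) for 13 weeks. Adenine feeding injures the kidney and is used as a model of chronic kidney disease. Each library is called by its diet and the number in its label, control 1 to control 4 and adenine 1 to adenine 4. The source is given as heart, and the sources used here do not give the part of it that went into each library. No label ties a library to its own animal, so the p-values measure spread among these samples only, and that spread may be technical.

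The chambers of the heart use different copies of the same contractile proteins. In adult atria the myosin motor carries the light chains encoded by Myl4 (essential) and Myl7 (regulatory), whereas ventricles use Myl3 and Myl2. Atrial muscle also makes sarcolipin, the product of Sln, which restrains the calcium pump of the sarcoplasmic reticulum, as phospholamban (Pln) does in ventricles. Bmp10 is a secreted factor of the BMP family made by atrial muscle, Nr2f2 and Nr2f1 encode the COUP transcription factors that set atrial identity during development, and Dkk3 and Stard10 encode a secreted glycoprotein of the Dickkopf family and a lipid transfer protein. Nr2f2 is also known from venous and lymphatic endothelium, and Sln from skeletal muscle.

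In these hearts the 3 contractile and calcium pump genes Myl4, Myl7 and Sln differed between libraries of the same diet by far more than between diets. Myl7 ranged over 737-fold, Sln over 482-fold and Myl4 over 300-fold between the highest and the lowest of the 8 libraries. Control 2 was highest for all 3, and adenine 2, adenine 4 and control 3 were lowest. Stard10 and Dkk3 followed nearly the same order over a smaller range, whereas Nr2f2 and Nr2f1 stayed within 1.43-fold and 1.62-fold. No member passed the test of the diet.

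The sequences before the start sites of 4 members are shown first: Myl4, Myl7 and Stard10, which varied together, and Bmp10, which did not vary with them. RefSeq promoter entries on GRCm38.p6 matched 6 of the 8 members, with no entry for Sln and Dkk3. The 250 bases before the start, 5′ to 3′ on the strand of the gene, are given for Myl4 at chr11:104550413-104550662 (plus strand), Myl7 at chr11:5898783-5899032 (minus strand), Stard10 at chr7:101316836-101317085 (plus strand) and Bmp10 at chr6:87428744-87428993 (plus strand). Capitals mark matches, on either strand, to 5 short motifs: GATAA (the core bound by GATA factors), AGGTGT (T-box factors), AGGTCA (a half-site of nuclear receptors such as the COUP factors), CAAGTG (NKX2-5) and the MEF2 core, CTA and TAG with any 4 bases between them.
Myl4: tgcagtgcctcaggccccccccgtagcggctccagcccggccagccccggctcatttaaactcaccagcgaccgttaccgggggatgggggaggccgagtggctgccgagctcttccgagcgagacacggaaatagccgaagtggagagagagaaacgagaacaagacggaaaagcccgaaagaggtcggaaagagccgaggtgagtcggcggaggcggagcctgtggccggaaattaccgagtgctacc
Myl7: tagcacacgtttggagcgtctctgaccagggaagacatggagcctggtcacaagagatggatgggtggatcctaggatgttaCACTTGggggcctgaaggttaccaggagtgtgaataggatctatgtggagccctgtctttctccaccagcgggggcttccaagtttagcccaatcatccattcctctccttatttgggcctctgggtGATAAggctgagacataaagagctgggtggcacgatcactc
Stard10: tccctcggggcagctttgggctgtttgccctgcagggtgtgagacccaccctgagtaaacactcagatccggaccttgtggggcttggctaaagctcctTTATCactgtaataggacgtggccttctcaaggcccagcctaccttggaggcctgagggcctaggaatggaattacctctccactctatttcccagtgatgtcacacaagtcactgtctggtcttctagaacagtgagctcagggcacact
Bmp10: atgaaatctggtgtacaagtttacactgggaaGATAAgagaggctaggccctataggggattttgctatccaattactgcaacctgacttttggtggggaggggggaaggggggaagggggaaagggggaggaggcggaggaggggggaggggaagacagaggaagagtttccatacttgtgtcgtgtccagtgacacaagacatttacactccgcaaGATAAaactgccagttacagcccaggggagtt
Myl7 held 1 GATAA and 1 CAAGTG, which reads CACTTG on the strand shown. Bmp10 held 2 matches to GATAA and Stard10 held 1, whereas these letters were not found in the window of Myl4 or in that of Nr2f2. GATAA occurs in 22.6% of the 32851 windows of this length in the table and CAAGTG in 11.6%. AGGTGT (11.8% of windows), AGGTCA (14.0%) and the MEF2 core (3.20%) had 0 matches in these windows. A match describes letters only and is no evidence of binding.

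Levels are given as CPM, read counts scaled to a common library size with TMM factors. Myl4 (ENSMUSG00000061086, on chromosome 11 from 104550663 to 104595753 of GRCm38) had 256, 2054, 23.5 and 157 CPM in the controls, in the order of their numbers. The adenine libraries had 188, 6.85, 231 and 7.74 CPM in the same order, which holds for all series of 4 values here. Myl7 (ENSMUSG00000020469, chromosome 11, 5896637 to 5898782) stood at 167, 1532, 17.03 and 118 CPM in the controls and at 151, 2.08, 183 and 2.80 CPM on adenine. Both diets thus held libraries with over 100 CPM and libraries far below that, and the ranges overlapped. Sln (ENSMUSG00000042045, chromosome 9, 53850164 to 53854560) stood at 39.7, 442, 4.51 and 38.1 CPM in the controls and at 30.9, 0.917, 85.4 and 1.27 CPM on adenine. The lowest of these values rest on few reads, 34 of Myl7 and 15 of Sln in adenine 2, with exact 95% Poisson intervals of 1.44 to 2.91 CPM and 0.513 to 1.51 CPM that cover counting error only.

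**Figure D1:**
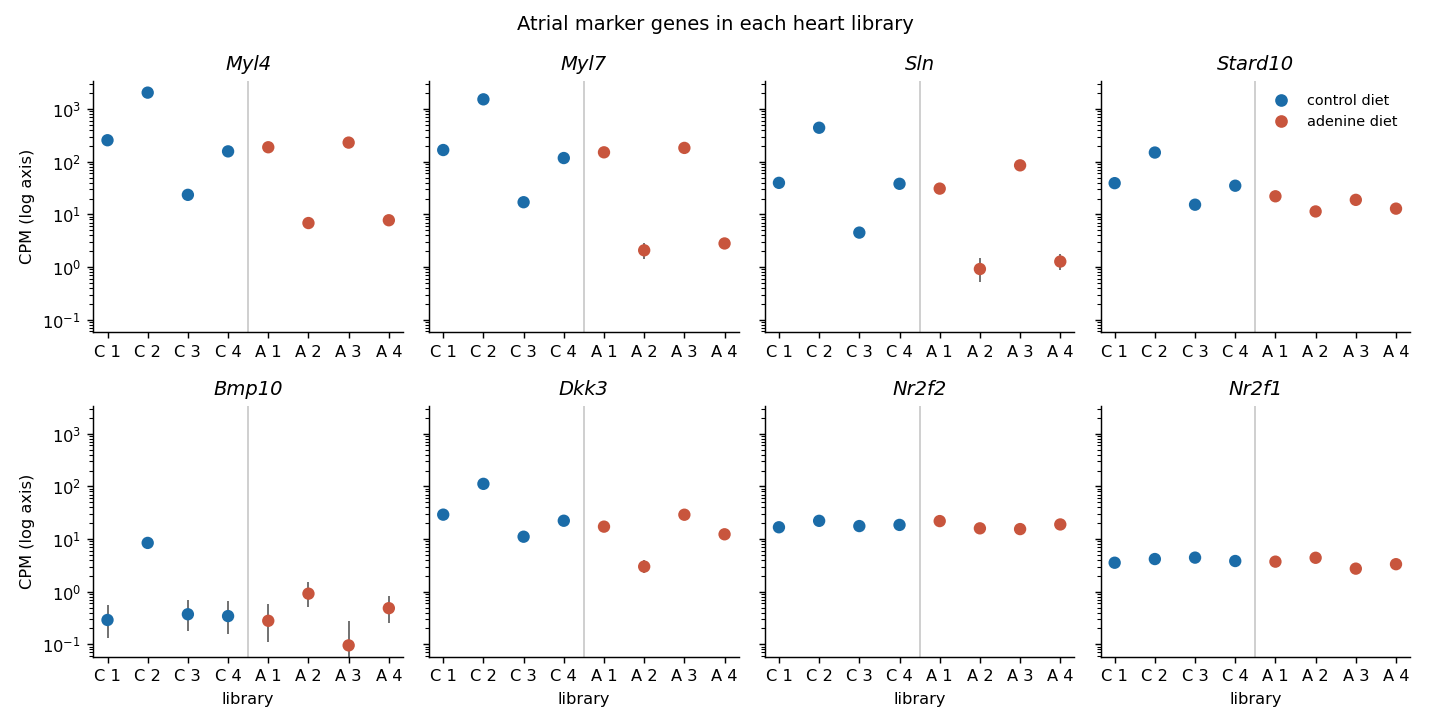
CPM of the 8 atrial marker genes (log axis) in control 1 to 4 (C 1 to C 4, blue) and adenine 1 to 4 (A 1 to A 4, red), with exact 95% Poisson intervals of the counts as bars. Myl4, Myl7 and Sln are highest in control 2 (2054, 1532 and 442 CPM) and lowest in adenine 2 (6.85, 2.08 and 0.917 CPM), while Nr2f2 and Nr2f1 lie on nearly flat lines.

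Stard10 (ENSMUSG00000030688, chromosome 7, 101317086 to 101346626) stood at 39.2, 149, 15.3 and 35.05 CPM in the controls and at 22.1, 11.4, 18.9 and 12.9 CPM on adenine. Dkk3 (ENSMUSG00000030772, chromosome 7, 112116017 to 112159057) stood at 29.04, 112, 11.1 and 22.2 CPM in the controls and at 17.2, 2.996, 28.9 and 12.3 CPM on adenine. Control 2 was the highest library for both genes and adenine 2 the lowest, and the diets overlapped. Outside control 2, Stard10 spanned 3.45-fold and Dkk3 9.69-fold, against 37.4-fold for Myl4, 88.1-fold for Myl7 and 93.1-fold for Sln. In adenine 2, the lowest library, Stard10 had 186 reads and Dkk3 49.

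Bmp10 (ENSMUSG00000030046, chromosome 6, 87428994 to 87437677) was detected at 8.44 CPM, 249 reads, in control 2. It had 9, 10 and 9 reads in control 1, control 3 and control 4 and 7, 15, 3 and 13 reads in adenine 1 to adenine 4, which is 0.0955 to 0.917 CPM. Control 2 was thus 9.20-fold above the next library, adenine 2. Among the other 7 libraries, Bmp10 ran against Myl4, Myl7, Sln, Stard10 and Dkk3: it was highest in adenine 2 and adenine 4, where Myl4, Myl7 and Sln were lowest. Receptor genes of smell and pheromone sensing, 1470 in all and known from sensory neurons, also took the most reads in those 2 libraries, with 2007 and 1225 CPM in sum against 423 to 850.0 CPM in the other 6. The part of these reads in the low Bmp10 values was not tested.

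Nr2f2 (ENSMUSG00000030551, chromosome 7, 70351944 to 70366735) stood at 16.7, 22.2, 17.6 and 18.5 CPM in the controls and at 21.9, 15.96, 15.4 and 18.9 CPM on adenine. Nr2f1 (ENSMUSG00000069171, chromosome 13, 78188973 to 78199757) stood at 3.55, 4.17, 4.43 and 3.82 CPM in the controls and at 3.72, 4.40, 2.74 and 3.33 CPM on adenine. Neither gene set a library apart: the highest was 1.01-fold above the next for both. Exons of Nr2f2 overlap those of B130024G19Rik and exons of Nr2f1 those of A830082K12Rik on the opposite strand, and exons of Myl4 overlap Gm22000 likewise. The sources used here do not say if counting was by strand, so these 3 values are uncertain to that extent. The same holds for the ventricular light chain genes Myl2 and Myl3, whose exons overlap Ccdc63 and Pth1r on the opposite strand. Exons of Atp2a2, Gja5, Irx3, Kcnj3, Mat2a, Mybphl, Myh6, Npm3, Nppa, Smtn, Tbx3 and Xirp2 overlap another gene likewise, and those of Pam overlap a gene on the same strand.

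Per length of exon, which allows a comparison between genes, Myl7 had the highest mean level of the 8 over all libraries, with 460.2 CPM per kb, followed by Myl4 with 78.8, Sln with 61.0 and Stard10 with 15.7 CPM per kb. Dkk3 had 8.76, Nr2f2 2.13, Nr2f1 0.740 and Bmp10 0.312 CPM per kb. Myl4 and Sln were close neighbours in this order: Sln per kb was 47.1 to 85.2% of Myl4 in 7 libraries and 130.1% in adenine 3. The ventricular genes Myl2 and Myl3 stood at 3250 and 2017 CPM per kb. Exon lengths were the union over all annotated transcripts, which lowers the value per kb of genes with long rare forms.

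The comparison of the diets asked whether atrial marker transcripts differ in hearts of mice with adenine-fed kidney disease. In edgeR's quasi-likelihood test 0 of the 8 members passed at an adjusted p under 0.05, where 0.0398% of all 20093 genes tested passed, all of them higher. 0 members passed in DESeq2, where 1.63% of all genes did, or in limma-voom, where 0.0249% did. At an unadjusted p under 0.05 in edgeR, 3 members were lower (Stard10, Bmp10 and Dkk3). Of all genes, 6.63% were lower at that p and 17.5% differed in either direction. Stard10 alone was so in limma-voom and in DESeq2, which gave Bmp10 no p. The share of all genes at an unadjusted p was not taken in DESeq2 or limma-voom. All 8 members had a negative log2 fold change (adenine minus control), as did 9196 of the 20093 genes tested. The median was -2.004 for the members against 0.053 over all genes. The members share their libraries and several varied together, so these are not 8 separate results. For 0 of the 8 did the libraries of the diets fail to overlap, against 7.29% of all genes.

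Mean levels were lower on adenine for the contractile genes, but with a spread as large as the mean. Myl4 had 623 ± 959 CPM in the controls and 108 ± 118 CPM on adenine (SD, n = 4 per diet), a log2 fold change of -2.52 (SE 1.23) with an adjusted p of 0.300 in edgeR. Myl7 had 458 ± 718 and 84.7 ± 95.9 CPM, a log2 fold change of -2.43 (SE 1.34). Sln had 131 ± 208 and 29.6 ± 39.8 CPM, a log2 fold change of -2.14 (SE 1.28). The adjusted p-values in edgeR were 0.332 for Myl7 and 0.359 for Sln, so neither gene passed.

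Stard10 had the lowest p of the members. It stood at 59.7 ± 60.7 CPM in the controls and 16.3 ± 5.04 CPM on adenine (SD, n = 4 per diet), with a log2 fold change of -1.87 (SE 0.53) and an adjusted p of 0.214 in edgeR. The log2 fold changes were -2.48 (SE 1.07) for Bmp10 and -1.49 (SE 0.66) for Dkk3, with adjusted p-values in edgeR of 0.276 and 0.279. The COUP factor genes gave narrow estimates near 0, -0.055 (SE 0.16) for Nr2f2 and -0.18 (SE 0.23) for Nr2f1, with adjusted p-values of 0.846 and 0.651. The sign for Nr2f2 turned with upper-quartile scaling (0.091), which also moved the median of all genes from 0.053 to 0.20. A p that misses the threshold does not show that the diets are alike.

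The size of these differences rested on control 2. Without it, the control mean of Myl4 was 146 ± 117 CPM (SD, n = 3), of Myl7 100.5 ± 76.4 CPM and of Sln 27.4 ± 19.9 CPM, against 108, 84.7 and 29.6 CPM on adenine. The log2 fold changes without control 2 were -0.38 (SE 1.03) for Myl4, -0.19 (SE 1.16) for Myl7, -0.40 (SE 0.53) for Dkk3 and -0.86 (SE 0.32) for Stard10. They turned positive for Sln (0.17, SE 1.11) and Bmp10 (0.31, SE 0.68). The median of the 8 members became -0.18, with 5 negative, against 0.084 over all genes in that fit. Leaving out adenine 3 had the opposite effect, with -3.21 (SE 1.24) for Myl4, -3.14 (SE 1.34) for Myl7 and -3.56 (SE 1.24) for Sln. Members lower at an unadjusted p under 0.05 numbered 1 without control 2 and 5 without adenine 3, against 3 with all libraries. They numbered 4 without control 1 or control 3, 3 without control 4, 2 without adenine 2, and 1 without adenine 1 or adenine 4. Genes called over the whole table also moved, from 8 with all libraries to 5 without control 2 and 67 without adenine 3. The share of all genes at that unadjusted p was not taken in the fits with a library left out. No member passed with any single library left out, and the adjusted p of Stard10 in edgeR ranged from 0.0710 without adenine 3 to 0.496 without control 2.

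**Figure D2:**
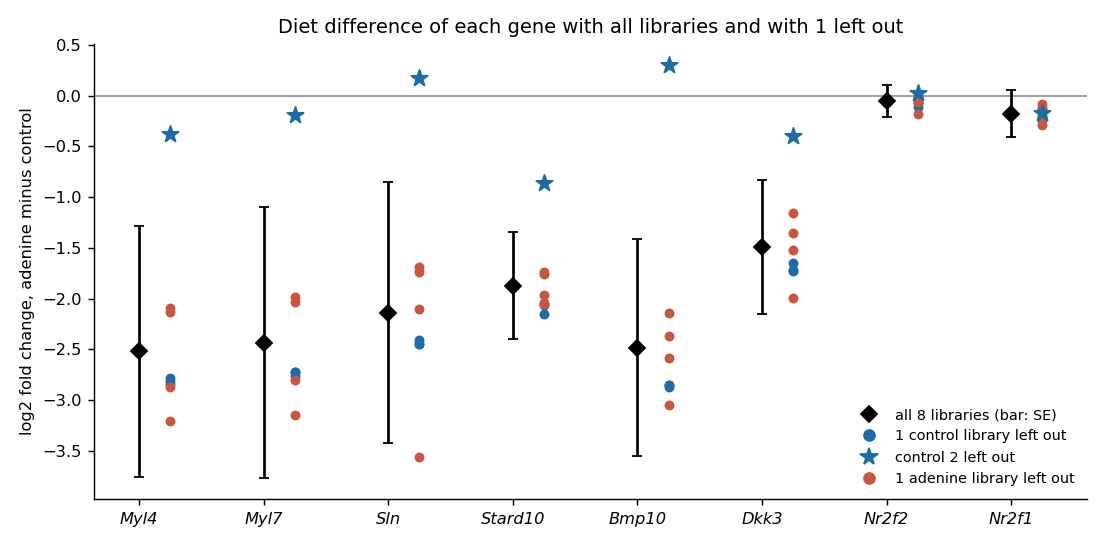
Log2 fold change of each atrial marker gene, adenine minus control, from edgeR with all 8 libraries (black diamonds, bars are SE) and with 1 library left out (blue for a control, red for an adenine library). Stars show the fit without control 2, where Myl4 moved from -2.52 to -0.38 and Sln from -2.14 to 0.17.

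Ratios of an atrial to a ventricular light chain within one library do not depend on scaling. Per kb of exon, Myl7 was 8.86, 71.5, 0.910 and 5.81% of Myl2 in the controls and 6.83, 0.101, 16.7 and 0.137% on adenine. Myl4 was 3.06, 21.5, 0.243 and 1.46% of Myl3 in the controls and 1.60, 0.0779, 4.28 and 0.0737% on adenine. Control 2 was highest and adenine 2 and adenine 4 lowest in both, with control 3 next above them. The mean log2 ratio of Myl7 to Myl2 was -3.72 ± 2.58 in the controls and -6.48 ± 3.80 on adenine (SD, n = 4), a difference of -2.76 with an exact two-sided permutation p of 0.286. The difference for Myl4 to Myl3 was -2.30 (exact two-sided permutation p = 0.286). The smallest p that the 70 assignments allow is 0.0286, and the p adjusted over the 2 ratios was 0.286 for both.

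Myl7 and Myl4 kept nearly one proportion in 6 of the 8 libraries. Per kb, Myl7 was 512% of Myl4 in control 1 (95% Clopper-Pearson interval of the read shares 494 to 530.4%), and 586, 569 and 587% in the other 3 controls. Adenine 1 and adenine 3 had 630 and 623%. In adenine 2 and adenine 4 the proportion was 239% (158 to 353%) and 285% (216 to 373%), below the intervals of all other libraries. These 2 libraries had 112 and 207 reads of Myl4, and the most reads of the receptor genes named above (2007 and 1225 CPM). Exons of Myl4 span 4637 bases in all and those of Myl7 590. A link of these reads or lengths with the proportion was not tested. The intervals cover counting error only, and the proportion was chosen for description after the values were seen.

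**Figure D3:**
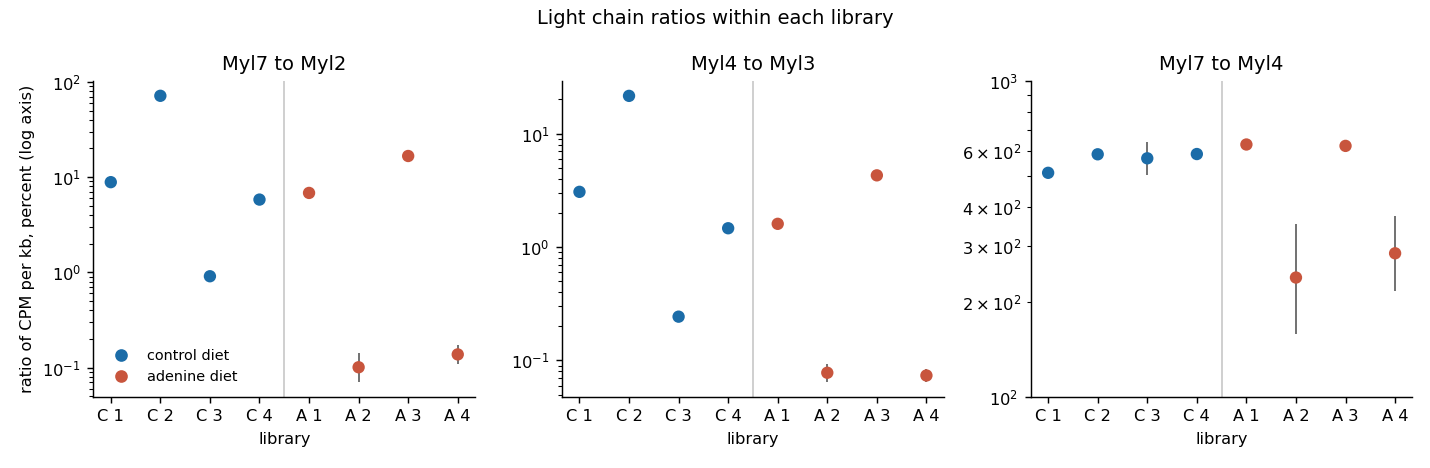
Ratios of light chain genes within each library, in percent of CPM per kb of exon (log axes), with 95% Clopper-Pearson intervals as bars, for control 1 to 4 (C 1 to C 4, blue) and adenine 1 to 4 (A 1 to A 4, red). Myl7 to Myl2 runs from 0.101% in adenine 2 to 71.5% in control 2, while Myl7 to Myl4 lies between 512 and 630% in 6 libraries and at 239 and 285% in adenine 2 and adenine 4.

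The ventricular list moved little beside these ranges. Of its 8 genes 0 passed in edgeR, and the median log2 fold change was -0.22. Only 1, Kcnj2, was lower at an unadjusted p under 0.05 in edgeR, where 6.63% of all genes were. Kcnj2 also passed in DESeq2 (adjusted p = 0.0358), which called 0.871% of all genes lower. Myl2 stood at 6187 to 7077 CPM in the controls and 3629 to 7308 CPM on adenine, and Myl3 at 3688 to 4742 and 2379 to 5193 CPM. Their log2 fold changes were -0.095 (SE 0.25) and -0.073 (SE 0.25), and both turned positive with upper-quartile scaling (0.062 and 0.072). Adenine 3 was the lowest library for both genes, and without it they had 0.079 and 0.10. Kcnj2, a channel of the resting potential, had -0.72 (SE 0.19) with no overlap between diets, where 3.84% of all genes were lower without overlap. The homeobox gene Irx3 had -0.30 (SE 0.18). Summed CPM of the list was 11589 to 13328 in the controls and 7342 to 13929 on adenine. The shared cardiomyocyte list, which checks the labelled tissue, was high in every library, with 29969 to 56920 CPM in sum. None of its 8 genes passed in edgeR, DESeq2 or limma-voom, also with 0 at an unadjusted p under 0.05. The muscle genes Myh6 and Tnnt2 had -0.27 (SE 0.30) and -0.0070 (SE 0.22), Actc1 had -0.46 (SE 0.24) and Atp2a2, the calcium pump that sarcolipin acts on, -0.40 (SE 0.25).

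In the list of other atrial-enriched genes, 0 of 10 passed in edgeR, DESeq2 or limma-voom, and the median log2 fold change was -0.23. At an unadjusted p under 0.05 in edgeR, 1 was higher and 2 lower, where 10.9% of all genes were higher and 6.63% lower. For 2 of the 10, Kcnj3 and Gja5, all adenine libraries lay below all controls, where 3.84% of all genes were lower without overlap. Kcnj3, a subunit of the atrial acetylcholine-gated potassium channel, stood at 49.1, 93.8, 41.3 and 43.1 CPM in the controls and 38.4, 33.9, 29.1 and 22.95 CPM on adenine, with a log2 fold change of -0.87 (SE 0.26), an adjusted p of 0.216 in edgeR and -0.52 without control 2. Gja5, which encodes connexin 40 of atrial muscle, conduction fibres and arterial endothelium, had 10.99 to 13.9 and 7.72 to 9.61 CPM, and a log2 fold change of -0.49 (SE 0.15). Of the 10 genes 3 had an r above 0.8 over the 8 libraries with an atrial index, the mean centred log2 CPM of Myl4, Myl7, Sln and Bmp10: Kcnj3 (0.812), Kcnj5 (0.858), another subunit of the same channel, and the T-box factor gene Tbx5 (0.859), where 2.77% of all genes had one. Nppa, the atrial natriuretic peptide gene, did not follow the members: it stood at 404, 828, 1043 and 638 CPM in the controls and 545, 94.7, 1684 and 929.8 CPM on adenine. It was highest in adenine 3, and its log2 fold change of 0.16 (SE 0.58) was -0.48 without adenine 3. Pam, the enzyme that amidates peptides and a major membrane protein of atrial granules, had -0.48 (SE 0.37), and 0.037 without control 2.

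Likeness between genes is described over the 8 libraries as Pearson's r of log2 CPM, with no test, since all points share their libraries and their scaling. Myl4, Myl7 and Sln had r of 0.991 to 0.995 with each other, which was 0.987 to 0.995 without control 2. Stard10 and Dkk3 had 0.850 to 0.918 with these 3, and 0.818 to 0.874 without control 2. Bmp10 had 0.262 to 0.671 with the other 5, and -0.873 to -0.503 without control 2. Nr2f2 and Nr2f1 had -0.258 to 0.561 with the other 6 members. The 15 pairs among the 6 members other than the COUP factor genes had a median of 0.883, and of 0.848 after each diet was centred on its own mean.

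The atrial index was 0.87, 4.43, -1.52 and 0.61 in the controls and 0.63, -2.97, 0.87 and -2.92 on adenine. Control 1, control 4, adenine 1 and adenine 3 therefore lay close together, across both diets. Of members that are not in the index, Stard10 had r of 0.926 with it, Dkk3 0.923, Nr2f2 0.482 and Nr2f1 -0.084. Bmp10 had 0.441 with the index although it is part of it.

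Over all genes tested, 2.77% had an r above 0.8 with the index and 13.6% an r below -0.8. The 10 genes outside the members with the highest r and a mean of at least 1 CPM were Ythdf1 (0.976), Mybphl (0.967), Stx11, Mat2a, Dbi, Hpf1, Copz1, Magee1, Mt3 and Npm3 (0.939), with r after centring each diet of 0.937 to 0.969. A high r says nothing of size: Ythdf1, a reader of methylated RNA, spanned 0.52 log2 units over the libraries and 8 of the other 9 spanned 0.48 to 1.65. Mybphl, which encodes a protein related to myosin binding protein and known from atria and the conduction system, spanned 6.34 log2 units. Mybphl (ENSMUSG00000068745, chromosome 3, 108364911 to 108380057) stood at 10.8, 102.9, 1.45 and 9.21 CPM in the controls and 8.40, 2.38, 10.9 and 1.20 CPM on adenine, with a log2 fold change of -2.42 (SE 0.98), an adjusted p of 0.269 in edgeR and -0.28 without control 2. A range of at least 3 log2 units together with an r above 0.8, thresholds set after the values were seen, held for 15 of 20093 genes (0.0747%). These were 5 members, Myl4, Myl7, Sln, Stard10 and Dkk3, and 10 others: Mybphl, Rab33a, Hamp, Msln, Sbk2, Cdo1, Fmod, Sbk3, Sfrp5 and Ddit4l. Of these members Myl4, Myl7 and Sln are part of the index, which raises their r by construction, whereas Stard10 and Dkk3 are not.

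**Figure D4:**
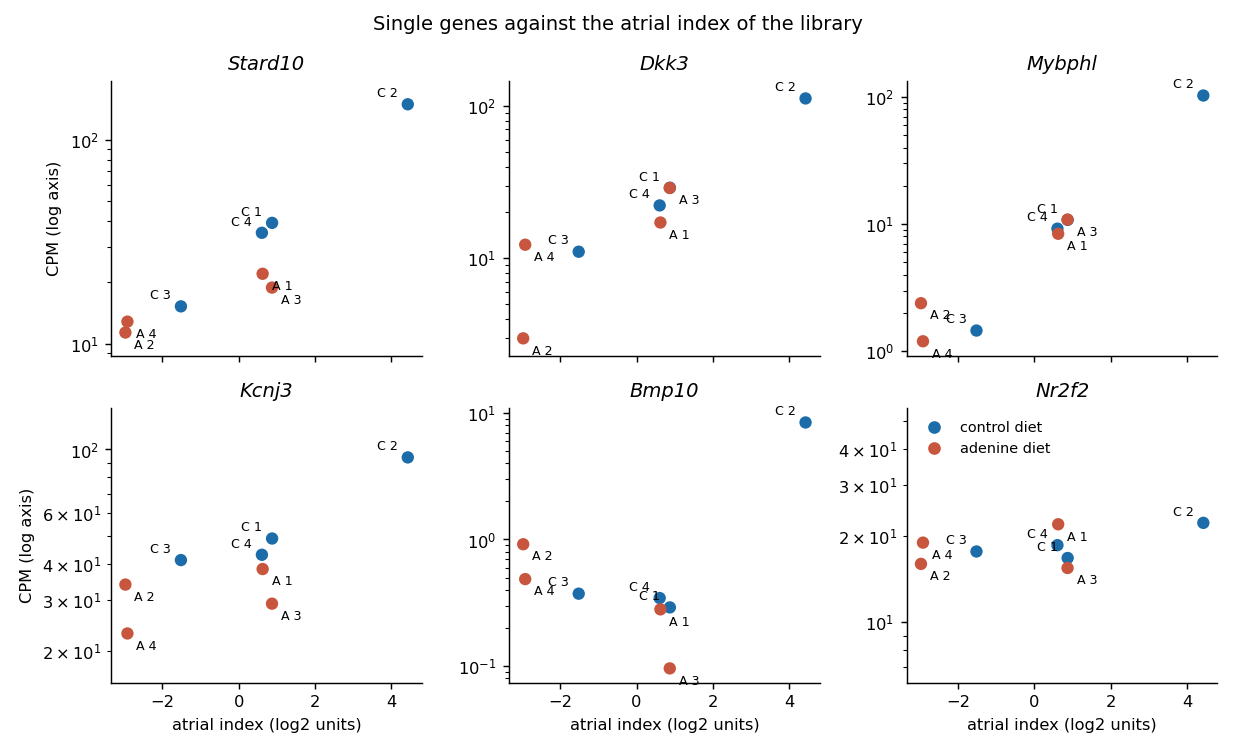
CPM of 6 genes (log axis) against the atrial index of the library (log2 units), for control 1 to 4 (C 1 to C 4, blue) and adenine 1 to 4 (A 1 to A 4, red). Stard10 and Dkk3, which are not part of the index, and Mybphl rise with it in both diets (r = 0.926, 0.923 and 0.967), Nr2f2 hardly changes, and Bmp10 is high in control 2 alone.

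Other cell types that express members, or that lie next to the atria, were followed by their own lists, 0 of whose genes passed in edgeR or limma-voom. In the epicardial and mesothelial list (median log2 fold change -0.53) 2 of 6 were lower at an unadjusted p under 0.05, as against 6.63% of all genes, and 0 passed in DESeq2. Msln had -1.35 (SE 0.58), Upk3b -1.28 (SE 0.55) and the transcription factor gene Wt1 0.22 (SE 0.20). Msln and Upk3b were highest in control 2, with 6.47 and 16.5 CPM, and without control 2 their log2 fold changes were -0.56 and -0.30. The list summed to 9.65 to 36.0 CPM in the controls, highest in control 2, and to 11.5 to 17.1 CPM on adenine. The fibroblast list (median -0.75) had 6 of 7 genes lower at an unadjusted p under 0.05 and 4 of 7 without overlap, all lower, where 3.84% of all genes were. DESeq2 called 4 of 7, all lower, where it called 0.871% of all genes lower. Dpt had -1.21 (SE 0.26), the transcription factor gene Tcf21 -1.03 (SE 0.24), and Dcn and Gsn -0.69 (SE 0.20) and -0.75 (SE 0.31). Col1a1 went the other way, with 0.54 (SE 0.53), at 113.5 ± 33.8 CPM in the controls and 165 ± 180 CPM on adenine (SD). The summed level was 1702 to 2766 CPM in the controls, highest in control 2, and 1001 to 1498 CPM on adenine.

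The smooth muscle list (median -0.70) had 4 of 6 genes lower at an unadjusted p under 0.05, where 6.63% of all genes were, and 0 in DESeq2, with -1.32 (SE 0.51) for Cnn1, -0.97 (SE 0.41) for Myh11, -0.91 (SE 0.40) for Acta2 and -0.40 (SE 0.24) for Smtn. It summed to 456 to 864 CPM in the controls, highest in control 2, and 241 to 553 CPM on adenine, and Cnn1 had -0.51 without control 2. Venous and lymphatic endothelial genes (median -0.29) had 2 of 9 lower at an unadjusted p under 0.05, Ccl21a and Emcn. Ccl21a, with -1.05 (SE 0.30), passed in DESeq2, which called 0.871% of all genes lower. Emcn had -0.38 (SE 0.14) and Vwf -0.37 (SE 0.26). The list summed to 288 to 453 CPM in the controls, highest in control 2, and to 231 to 309 CPM on adenine. Control 2 had the highest summed level of the 4 controls in 9 of the 11 lists besides the members, all but the fetal and stress list and the lung list. This count depends on scaling: the TMM factor of control 2, 0.871, was the lowest of all libraries, which raises its CPM. The other controls had 0.975 to 1.09. Over the 8 libraries, the mean centred log2 CPM of the list had an r with the atrial index of 0.770 for fibroblast, 0.757 for venous and lymphatic, 0.620 for epicardial and 0.616 for smooth muscle genes. These were 0.720, 0.671, 0.548 and 0.450 after each diet was centred on its own mean, and the part of these cells in the results was not tested.

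Sinoatrial node genes (median -0.18) had 0 of 7 in DESeq2 and 1 higher at an unadjusted p under 0.05, as against 10.9% of all genes, Isl1 with 1.502 (SE 0.55), or 0.74 without adenine 2. Isl1 was highest in adenine 2, at 5.14 CPM, the library with the most receptor reads, and a link between them was not tested. Vsnl1 had -0.89 (SE 0.60) and Tbx3 0.051 (SE 0.17), and the list summed to 44.6 to 57.9 CPM in the controls and 37.6 to 56.1 CPM on adenine. Skeletal muscle genes, checked because Sln is known from that tissue, were low in every library, with 29.8 to 50.1 CPM in sum in the controls and 32.7 to 40.1 CPM on adenine. In that list 3 of 9 were higher at an unadjusted p under 0.05 and 0 passed in DESeq2, with a median of 0.40. Myh4 and Actn3 had 1.03 (SE 0.41) and 1.02 (SE 0.42), and had r of -0.915 and -0.816 with the atrial index, and were lowest in control 2, where Sln was highest. The summed level of the list was highest in control 2 all the same. Myl1 alone in that list had an r above 0.8 (0.874), and a log2 fold change of -0.59 (SE 0.29), with its highest level, 41.1 CPM, in control 2. Fetal and stress genes of heart muscle (median 0.076) had 1 of 6 higher at an unadjusted p under 0.05. This was Nppb, the B-type natriuretic peptide gene, with 1.45 (SE 0.40), which passed in DESeq2 (adjusted p = 0.0201) and not in edgeR (0.207). DESeq2 called 1.63% of all genes, counting either direction. Acta1 had -0.016 (SE 0.64), Ankrd1 0.14 (SE 0.36) and Xirp2 -0.40 (SE 0.30), and the sum was 3032 to 6308 CPM in the controls and 2538 to 6278 CPM on adenine. Lung genes were near 0, at 0.644 to 2.18 CPM in sum in the controls and 1.53 to 4.95 CPM on adenine. The sum was highest in adenine 2 and adenine 4 (3.40 CPM), the libraries with the most receptor reads, and a link was not tested. In that list 2 of 4 genes were tested, Sftpb with 1.11 (SE 0.42) and Sftpa1 with 1.03 (SE 0.59). Of these 1 was higher at an unadjusted p under 0.05 and 0 passed in DESeq2.

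**Figure D5:**
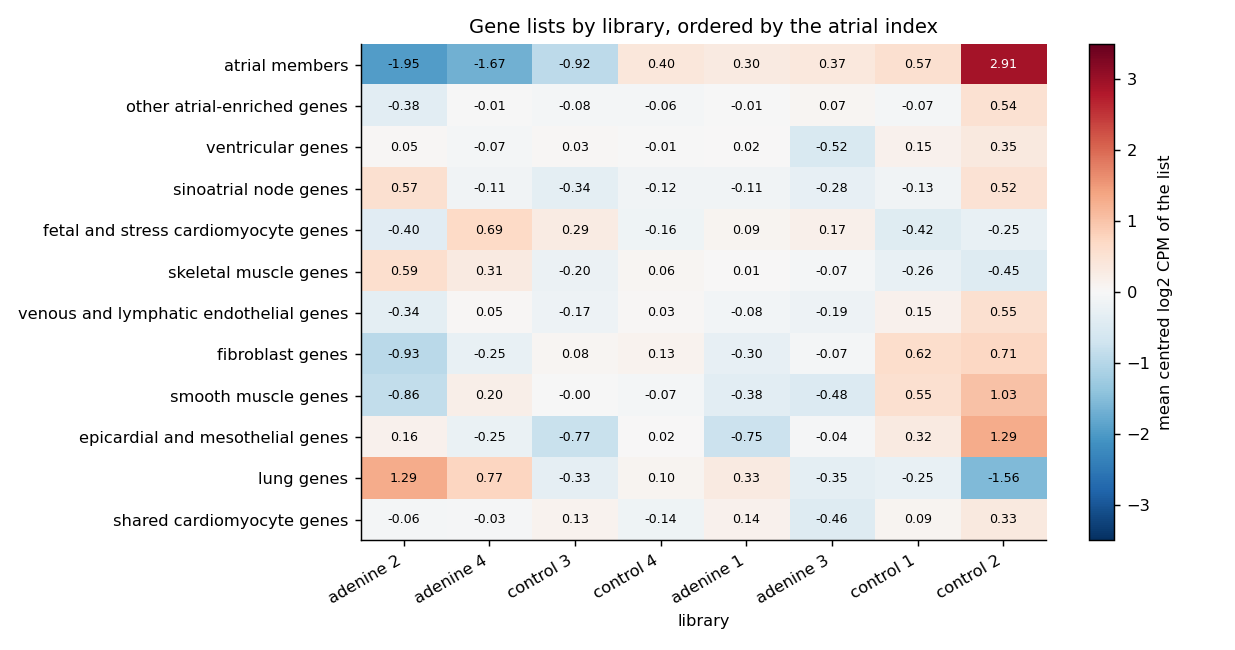
Mean centred log2 CPM of each gene list (rows; the first row holds the 8 atrial marker genes) in each library, with libraries ordered from the lowest to the highest atrial index. The atrial row runs from -1.95 in adenine 2 to 2.91 in control 2, while the ventricular and shared cardiomyocyte rows stay between -0.52 and 0.35.

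Over all genes, 8 passed in edgeR and all 8 were higher. With the atrial index as a covariate 37 passed (0.184% of genes), 27 higher and 10 lower, among them all 8, and without control 2 there were 5 (0.0239%), of which 3 were among the 8. In the fit with the index, Stard10 had a log2 fold change of -0.52 (SE 0.29) and Dkk3 -0.054 (SE 0.35). The index is made of other members, had r of 0.926 with Stard10 and 0.923 with Dkk3, and reached its lowest values on adenine. Smaller values were therefore built into this fit, which does not separate atrial tissue from the diet. Total counts were 15626620 to 33886385 per library, with adenine 2 the shallowest, and mitochondrially encoded transcripts took 31.0 to 41.9% of them. In bulk tissue, fewer cells of a type and less RNA per cell cannot be told apart, so these levels do not separate a library with little atrial muscle from one whose atrial muscle holds less of the transcripts. The part of unequal atrial tissue in the diet differences was not tested.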

How the data were processed

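RNA of mouse hearts was sequenced in 8 libraries, 4 per diet, grouped and numbered by their titles. The authors deposited unscaled counts, whole numbers of reads for each gene. Per the submitters' processing notes, reads were handled with STAR 2.7.6a and FastQC 0.11.9 on GRCm38.p6. The sources used here do not give the counting program, its annotation or strand setting, or earlier filters. Of 27304 genes, 20093 passed edgeR's filter by group.

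The diet was tested with edgeR 4.0.16 in R 4.3.3 (TMM scaling, quasi-likelihood F-test, Benjamini-Hochberg over all genes tested, called at an adjusted p under 0.05), after a check on simulated data. SE was derived from the F statistic. DESeq2 1.42.0, limma 3.58.1 (voom) and the other settings in the closing section were alternatives. Log2 CPM for r used a prior count of 2. Coordinates, exon lengths and overlaps came from a GENCODE annotation of GRCm38, and promoters from RefSeq. Named were the 8 members, up to 2 genes of lowest p and 2 most abundant per list, and the 10 most like the index; any others were picked with their values in view. A single gene that met these criteria is not reported here. The members and lists were chosen with earlier results of these data known. Pairs of replicates gave a chi-square of 20.3 to 97.7 for each gene, far above sampling noise, and all were kept as separate samples. Depth of 15626620 to 33886385 counts puts large counting error on values under 1 CPM.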

Additional observations from a re-analysis of the deposited data

Results flagged for a closer look

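In groups of 4 libraries, a library was singled out where its gap to the nearest other exceeded Dixon's 95% critical value for the range of its group. Of 118 groups examined, 11 held such a library. For normal values chance gives about 1 in 20 groups. Genes were taken as CPM and not as log2 CPM, so that rate cannot be relied on for genes of wide range. The genes also share their libraries. Control 2 was that library in 7, highest for Myl4 (2054 CPM), Myl7 (1532 CPM), Sln (442 CPM), Bmp10 (8.44 CPM), Kcnj3 (93.8 CPM) and Mybphl (102.9 CPM) and lowest for Sftpa1 (0.102 CPM). Adenine 3 was low for Myl2 (3629 CPM). Control 3 was high for Xirp2 (1020.1 CPM) and low for Emcn (53.0 CPM). Adenine 2 was high for Upk3b (3.36 CPM). On the log2 scale, the ratios of Myl7 to Myl2 and of Myl4 to Myl3 set no library apart by this measure.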

How the results depend on the processing

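No member passed under any alternative in which it was tested. Bmp10 did not pass the filter without mitochondrial transcripts or at 1 CPM in 4 libraries, and DESeq2 gave it no p. Genes called, 8 higher and 0 lower, were 19 with upper-quartile factors (18 and 1), 328 in DESeq2 (153 and 175), 5 in limma-voom (5 and 0), 9 without a filter (8 and 1) and 37 with the atrial index (27 and 10). They were 1 without control 1, control 3 or control 4, 5 without control 2, 3 without adenine 1, 10 without adenine 2, 67 without adenine 3 and 27 without adenine 4 (1 to 37 higher, 0 to 30 lower). The causes were not tested. The replicate number as a block gave 32 calls (16 and 16). The deviations of libraries with the same number had r of -0.50 to 0.30, and 0 of 4 controls were most like the adenine library of their number, so the numbers were not taken as pairs.

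The ratios could not reach an exact p of 0.05 with a library left out. Their differences were -4.06 to -1.61 for Myl7 to Myl2 and -3.39 to -1.21 for Myl4 to Myl3. With each library left out, the median log2 fold change of skeletal muscle genes, 0.40, was 0.41 to 0.71 (highest without control 1), and 0 to 1 fibroblast genes were called (Lum without adenine 3). The median r of the 15 pairs was 0.850 to 0.917.

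Log2 fold changes that turned, none of them called, were these. Upper-quartile factors gave 0.091 for Nr2f2, 0.062 for Myl2, 0.072 for Myl3, 0.079 for Acta1, 0.14 for Tnnt2, 0.013 for Mat2a and 0.067 for Npm3. A filter of 1 CPM in 4 libraries gave 0.015 for Nr2f2, 0.026 for Acta1 and 0.065 for Tnnt2. Limma-voom gave -0.41 for Nppa and 0.18 for Acta1, and the replicate block -0.20 and 0.24. The atrial index as a covariate gave 0.046 for Nr2f2, 0.050 for Pam, -0.047 for Tbx3, 0.019 for Vwf, 0.098 for Tnnt2, 0.0046 for Ythdf1, 0.31 for Mybphl, 0.039 for Mat2a, 0.048 for Copz1, 0.097 for Mt3 and 0.094 for Npm3. With each library left out, the ranges were -3.56 to 0.17 for Sln, -3.05 to 0.31 for Bmp10, -0.18 to 0.030 for Nr2f2, -0.48 to 0.53 for Nppa, -0.81 to 0.037 for Pam, -0.22 to 0.079 for Myl2, -0.25 to 0.10 for Myl3, -0.062 to 0.16 for Tbx3, -0.56 to 0.058 for Xirp2, -0.43 to 0.99 for Acta1, -0.12 to 0.39 for Ankrd1, -0.10 to 0.065 for Tnnt2 and -0.16 to 0.0075 for Npm3.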
